A study of Mus musculus with 10 samples.

Results

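The expression of 33 genes that mark astrocytes was read in the hippocampus of Dp5/Dp1 mice, a model of Down syndrome, and of their littermate controls. The 33 genes were taken by name from a list of known astrocyte genes, chosen with earlier results of these data known. All 33 had a probe set of their own on the array, and they are among 19938 genes measured. Each of the 5 Dp5/Dp1 mice carried 2 segmental duplications of mouse chromosome 16 (Mmu16), Dp5Yah and Dp1Rhr, 1 on each homologue, so that the genes between Cyyr1 and Clic6 and those between Cbr1 and Fam3b were present in 3 copies. The 5 controls were wild type at both intervals. All 10 mice were 16 weeks old males kept, per the labels, on a C57BL/6N background (the study's methods name C57BL/6J), and total RNA from both hippocampi of each mouse was hybridised to 1 array. Dp5Yah was made by recombination between loxP sites placed in App and Runx1. The condition label of the mutant arrays gives both duplications, although their titles put Dp5Yah first and Dp5/Dp1 only in brackets. None of the 33 genes lies in a duplicated interval, so all of them were in 2 copies in both groups.

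Astrocytes clear glutamate and potassium from the space around synapses, turn glutamate into glutamine for neurons, and are joined to each other by gap junctions. Their end-feet on blood vessels and at the brain surface are rich in water channels. They also supply neurons with lactate and lipoproteins, and they secrete proteins that act on synapses and on the extracellular matrix. In injury or disease they can become reactive, a state in which intermediate filament genes and groups of immune and matrix genes are induced. Several of the genes read here are not exclusive to astrocytes. Apoe and Cst3 are also made by microglia, Vim by endothelial, meningeal and ependymal cells, and Clu by neurons and by the choroid plexus.

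Sequences upstream of the transcription start are shown for Agt and Aldh1a1, the members with the lowest and the highest difference between Dp5/Dp1 and control. They are the 150 bases before the start in RefSeq on GRCm38.p6, 5′ to 3′ on the strand of the gene, and Aldh1a1 has 2 annotated starts. Capitals mark a TATA box (TATAAA) or the TGGCA motif of nuclear factor I, a family of factors known for its part in astrocyte development.
Agt, chr8:124569707-124569856, minus strand: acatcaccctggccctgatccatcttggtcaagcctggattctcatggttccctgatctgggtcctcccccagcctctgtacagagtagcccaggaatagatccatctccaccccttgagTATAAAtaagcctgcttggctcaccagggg
Aldh1a1, first start, chr19:20492433-20492582, plus strand: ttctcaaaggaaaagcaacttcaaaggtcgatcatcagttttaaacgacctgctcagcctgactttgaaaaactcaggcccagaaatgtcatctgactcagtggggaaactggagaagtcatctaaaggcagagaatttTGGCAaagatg
Aldh1a1, second start, chr19:20601818-20601967, plus strand: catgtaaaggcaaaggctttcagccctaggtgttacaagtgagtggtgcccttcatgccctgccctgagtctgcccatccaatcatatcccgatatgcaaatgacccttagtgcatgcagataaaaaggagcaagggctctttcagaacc

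The TATA box of Agt begins at position -30, counted from the base before the start as -1, and the TGGCA of the first start of Aldh1a1 begins at -11. Of the 33 members, 28 had an entry in the promoter table, with 39 starts in all. In the 250 bases before the start, on both strands, TATAAA stood in 5 of these 39 windows (12.8%), against 12.4% of the 32851 windows of all genes. TGGCA stood in 19 of the 39 (48.7%), against 42.8% of all windows. The palindromic motif of STAT factors, TTCNNNGAA, stood in 5 windows (12.8%, against 7.02%), which belong to Acsbg1, Agt, Aldoc, Ntsr2 and Slc1a3. None of the 3 motifs contains another. The arrays do not measure the use of these starts or motifs, and a match is a description of the sequence.

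Values below are RMA log2 expression, and a difference is always Dp5/Dp1 minus control on the log2 scale, with its standard error (SE) and n = 5 per group. The tissue was checked on 4 genes of hippocampal neurons, chosen after the files had been seen. Prox1, Wfs1, Neurod6 and Zbtb20 lay at or above the 88.5th percentile of all gene means. The lowest percentile of a member's mean was 59.0. Dp5/Dp1 replicates 1 and 5 stood apart from the other arrays for many members, as set out further down, so counts are also given without them. Choroid plexus markers differed widely between arrays within both groups, and medial habenula markers were high in Dp5/Dp1 replicates 2 and 5.

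The first question was whether astrocyte genes, none of them trisomic, differed in level between Dp5/Dp1 and control hippocampus. None of the 33 was called by limma at an adjusted p under 0.05 over all genes, where 0.206% of all genes were called. The lowest adjusted p of a member was 0.483, that of Aldh1a1. At an unadjusted p under 0.05 there were 8 members (24.2%), against 1208 of all genes (6.06%). Aldh1a1 was the only higher one, against 3.39% of all genes. Agt, Mfge8, Gja1, Apoe, Clu, Slc7a10 and Slc1a2 were lower, 7 members or 21.2%, against 2.67% of all genes. The mean was lower in Dp5/Dp1 for 22 members (66.7%) and higher for 11, while 48.5% of all genes were lower. The median difference of the members was -0.048, and that of all genes was 0.0019. The members were chosen with earlier results of these data known, so these shares are a description and not a test of the list.

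Groups that did not overlap were found for 2 members. For Aldh1a1 the lowest of the 5 Dp5/Dp1 arrays exceeded the highest control, as for 0.762% of all genes, and for Slc1a2 every Dp5/Dp1 array was under every control, as for 0.321% of all genes. FCROS, a method based on ranks of fold changes, passed Aldh1a1 and Ntsr2 as higher, where 2.84% of all genes passed. It passed Agt, Gja1 and Mfge8 as lower, where 2.21% of all genes passed. Without Dp5/Dp1 replicates 1 and 5, an exclusion chosen after the values were seen, limma again called no member, and 2 members, Agt and Aldh1a1, kept an unadjusted p under 0.05, with 3.74% of all genes below it. In a bulk sample, fewer astrocytes, less RNA of a lower gene per astrocyte and a different share of other tissue cannot be told apart.

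**Figure D1:**
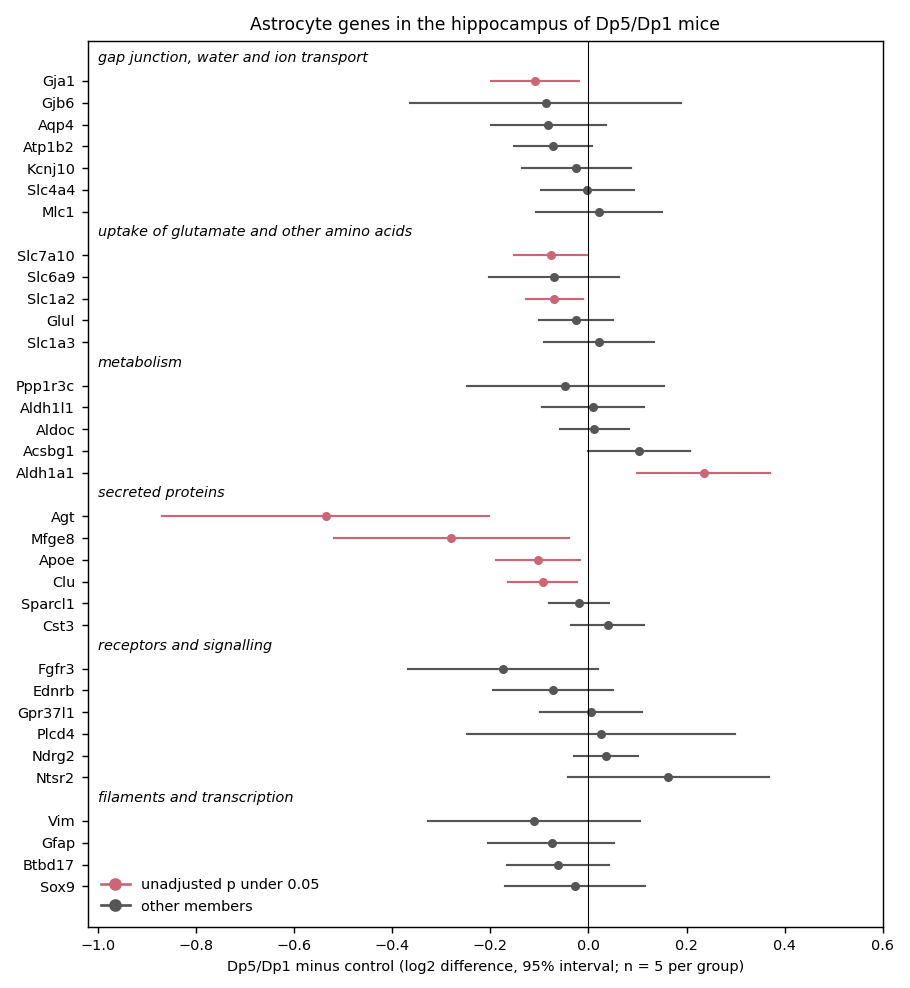
Difference between Dp5/Dp1 and control for the 33 astrocyte genes, grouped by role. The x axis is the log2 difference, points are the difference of the means of 5 arrays per group, and lines are limma's 95% intervals. Members with an unadjusted p under 0.05 are in red. Agt (-0.54) and Aldh1a1 (0.24) lie at the ends, and most other points lie within 0.1 of 0.

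The members were most spread out among the secreted proteins, where 5 of 6 had a lower mean in Dp5/Dp1 (median difference -0.098) and 4 had an unadjusted p under 0.05. Over all genes, 48.5% had a lower mean. At an unadjusted p under 0.05, 2.67% of all genes were lower and 3.39% higher. These shares stand beside the counts of every role group below, and limma called no gene in any of the groups. Agt encodes angiotensinogen, the precursor of the angiotensin peptides, which the brain makes mainly in astrocytes (GRCm38 chromosome 8, 124556587 to 124569706). Agt stood at 10.08, 9.56, 9.78, 9.97 and 9.38 in control replicates 1 to 5. It stood at 8.83, 9.62, 9.30, 9.17 and 9.18 in Dp5/Dp1 replicates 1 to 5. The groups overlapped through Dp5/Dp1 replicate 2, which lay above control replicates 2 and 5, while the other 4 Dp5/Dp1 arrays were under every control. The mean was 9.75 ± 0.29 (SD) in controls and 9.22 ± 0.28 in Dp5/Dp1, a difference of -0.54 ± 0.15 (0.690 of the control level, 95% interval -0.87 to -0.20, limma adjusted p = 0.608). Agt was also the member with the widest spread within groups, with a pooled SD of 0.287, where the median over members was 0.087 and over all genes 0.070.

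Mfge8, which encodes a secreted bridging protein in the uptake of dying cells and debris (chromosome 7, 79133768 to 79149060), was lower mainly on 2 arrays. Controls were close together at 10.44, 10.47, 10.56, 10.41 and 10.40. Dp5/Dp1 replicates 2, 3 and 4, at 10.30, 10.46 and 10.37, lay near the controls, with replicates 2 and 4 below all of them. Replicates 1 and 5, at 9.93 and 9.83, lay well below. The difference was -0.28 ± 0.11 (adjusted p = 0.806), and it was -0.080 without Dp5/Dp1 replicates 1 and 5.

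Apoe, the main lipid carrier of the brain, had 13.13, 13.09, 13.07, 13.18 and 13.03 in controls and 12.96, 13.08, 13.04, 12.97 and 12.93 in Dp5/Dp1. Dp5/Dp1 replicates 1, 4 and 5 lay below all controls, and replicates 2 and 3 among them (difference -0.10 ± 0.04, 0.931 of the control level, adjusted p = 0.806). Clu, a secreted chaperone and lipoprotein component, had 11.74, 11.71, 11.76, 11.76 and 11.71 in controls against 11.60, 11.66, 11.72, 11.59 and 11.62 in Dp5/Dp1. Its groups overlapped only through Dp5/Dp1 replicate 3 (difference -0.093 ± 0.032, adjusted p = 0.755). Sparcl1, which encodes the synaptogenic protein hevin, differed by -0.019 ± 0.028. Cst3, the protease inhibitor cystatin C, was the member of this group with a higher mean, by 0.039 ± 0.034.

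**Figure D2:**
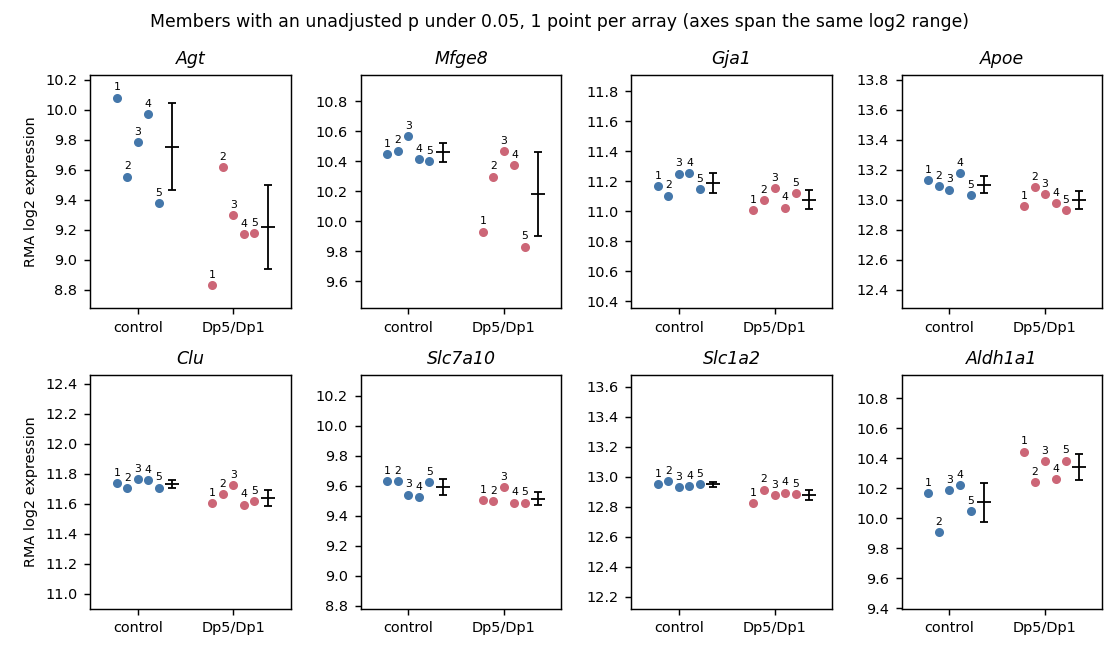
Level of the 8 members with an unadjusted p under 0.05 on each array. The y axis is RMA log2 expression, each panel spans the same log2 range around its own values, points are arrays numbered by replicate (control in blue, Dp5/Dp1 in red), and the bars are the mean ± SD of 5 arrays. Agt and Mfge8 spread most in Dp5/Dp1, and Aldh1a1 and Slc1a2 do not overlap between groups.

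Gap junction, water and ion transport genes had a lower mean in 6 of 7 cases, with small differences (median -0.072). Gja1, which encodes connexin 43, the main gap junction protein of astrocytes (chromosome 10, 56377300 to 56390419), was the one with an unadjusted p under 0.05. Its levels were 11.17, 11.11, 11.25, 11.26 and 11.15 in controls and 11.01, 11.08, 11.15, 11.03 and 11.12 in Dp5/Dp1. Dp5/Dp1 replicates 1, 2 and 4 lay below all controls and replicates 3 and 5 above control replicate 2. The difference was -0.11 ± 0.04, 0.927 of the control level, with an adjusted p of 0.806.

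Gjb6, connexin 30, had a wider spread and a difference of -0.087 ± 0.126, so its 95% interval ran from -0.36 to 0.19. Aqp4, the water channel of astrocyte end-feet, had 10.44, 10.21, 10.46, 10.37 and 10.31 in controls and 10.14, 10.32, 10.35, 10.26 and 10.31 in Dp5/Dp1. Only Dp5/Dp1 replicate 1 lay below all controls (difference -0.081 ± 0.053, adjusted p = 0.852). Kcnj10, the inward rectifier Kir4.1 that takes up potassium, differed by -0.024 ± 0.051. Atp1b2, a subunit of the sodium pump, differed by -0.072 ± 0.036, with 4 of 5 Dp5/Dp1 arrays below all controls. The bicarbonate cotransporter gene Slc4a4 differed by -0.0028 ± 0.0432, and Mlc1, a membrane protein of astrocyte junctions, by 0.021 ± 0.059.

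The group for uptake of glutamate and other amino acids also counts Glul, which encodes an enzyme and not a transporter. In this group 4 of 5 genes had a lower mean (median -0.070), against 48.5% of all genes. With an unadjusted p under 0.05, 2 were lower, against 2.67% of all genes. Slc1a2 encodes GLT-1, which carries most of the glutamate uptake in the forebrain (chromosome 2, 102658239 to 102790784). Its controls lay within a narrow band at 12.95, 12.97, 12.93, 12.94 and 12.95. Dp5/Dp1 arrays had 12.83, 12.91, 12.88, 12.89 and 12.88. The groups did not overlap, but the gap between the highest Dp5/Dp1 array and the lowest control was narrow and the difference was only -0.070 ± 0.027, 0.953 of the control level (95% interval -0.13 to -0.011, adjusted p = 0.806). Slc1a2 had the lowest pooled SD of all members, 0.025.

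Slc1a3, the second astrocyte glutamate transporter, GLAST, had 11.64, 11.70, 11.72, 11.71 and 11.69 in controls and 11.87, 11.55, 11.74, 11.64 and 11.76 in Dp5/Dp1. The Dp5/Dp1 arrays lay on both sides of the controls, with a difference of 0.022 ± 0.052. Glul, glutamine synthetase, had 12.98, 12.99, 13.01, 13.09 and 13.03 in controls and 12.98, 12.93, 13.01, 12.99 and 13.08 in Dp5/Dp1. The ranges overlapped (difference -0.025 ± 0.035), and its second probe set differed by -0.024. It is the only member with more than 1 probe set.

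Slc7a10, an exchanger of small neutral amino acids, had 9.63, 9.63, 9.54, 9.52 and 9.62 in controls and 9.51, 9.49, 9.59, 9.49 and 9.49 in Dp5/Dp1. Replicate 3 was the one Dp5/Dp1 array within the control range (difference -0.076 ± 0.035, adjusted p = 0.823). Slc6a9, the glycine transporter GlyT1, differed by -0.070 ± 0.061, with 4 Dp5/Dp1 arrays below all controls and replicate 2 above all of them.

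Metabolism genes had a higher mean in 4 of 5 cases (median 0.012). Aldh1a1 encodes a retinaldehyde dehydrogenase that makes retinoic acid (chromosome 19, 20492583 to 20643463). Controls had 10.17, 9.91, 10.19, 10.22 and 10.05, and Dp5/Dp1 arrays had 10.44, 10.24, 10.38, 10.26 and 10.38. Control replicate 2 was the lowest array and Dp5/Dp1 replicate 1 the highest. The groups did not overlap, but the lowest Dp5/Dp1 array (10.24) lay only just above the highest control (10.22). The difference was 0.24 ± 0.06, a 1.18-fold higher level (95% interval 0.10 to 0.37, adjusted p = 0.483). It was 0.19 without Dp5/Dp1 replicates 1 and 5.

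Acsbg1, an acyl-CoA synthetase of long-chain fatty acids, came next with 0.10 ± 0.05 (adjusted p = 0.824), and 3 Dp5/Dp1 arrays above all controls. Aldh1l1, a folate enzyme widely used to label astrocytes, had 9.08, 9.01, 9.09, 9.12 and 8.93 in controls and 9.18, 9.00, 9.03, 8.96 and 9.10 in Dp5/Dp1. Dp5/Dp1 replicate 1 was the highest array and the other 4 lay within the control range (difference 0.0086 ± 0.0476). The glycolytic enzyme gene Aldoc differed by 0.012 ± 0.032, and Ppp1r3c, which targets a phosphatase to glycogen, by -0.048 ± 0.092.

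Receptors and signalling genes were mixed, 2 lower and 4 higher (median 0.015), none with an unadjusted p under 0.05. Fgfr3, a receptor for fibroblast growth factors, had the lowest difference among the 25 members outside that limit, -0.17 ± 0.09 (adjusted p = 0.832), with Dp5/Dp1 replicates 1 and 5 at 9.19 and 9.27 and the other 3 at 9.57 to 9.60, inside the control range. Ntsr2, a neurotensin receptor, had the highest of them, 0.16 ± 0.09 (adjusted p = 0.841). Dp5/Dp1 replicate 1, at 11.00, was the one array of Ntsr2 above all controls, and without it the difference was 0.090. Without Dp5/Dp1 replicate 1 that of Fgfr3 was -0.11. Ednrb, the endothelin B receptor, differed by -0.072 ± 0.056, the orphan receptor gene Gpr37l1 by 0.0054 ± 0.0474, and Ndrg2, an abundant astrocyte gene, by 0.036 ± 0.030. Plcd4, a phospholipase C, differed by 0.025 ± 0.125.

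The 4 genes grouped under filaments and transcription all had a lower mean (median -0.069), none with an unadjusted p under 0.05. Gfap, the intermediate filament protein that increases in reactive astrocytes, had 10.68, 10.38, 10.57, 10.65 and 10.55 in controls and 10.54, 10.46, 10.55, 10.35 and 10.54 in Dp5/Dp1. The groups overlapped except for Dp5/Dp1 replicate 4 (difference -0.075 ± 0.059, 95% interval -0.20 to 0.053, adjusted p = 0.875). Vim, vimentin, differed by -0.11 ± 0.10. Sox9, a transcription factor of astrocyte identity, had 10.11, 10.27, 10.05, 10.30 and 10.12 in controls and 10.17, 10.27, 10.19, 9.93 and 10.14 in Dp5/Dp1, with only replicate 4 below all controls (difference -0.028 ± 0.066). Btbd17, counted in this group although it is not an established filament or transcription gene, differed by -0.062 ± 0.047. Without Dp5/Dp1 replicate 4 the difference of Gfap was -0.041 and that of Vim -0.043, and without control replicate 2 they were -0.12 and -0.18.

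The size of change in array signal that these arrays leave room for was read from limma's 95% intervals. They are intervals of single genes on RMA log2 values, not adjusted for the number of genes. Compression of RNA differences by the arrays was not tested. For 26 of the 33 members the interval lay wholly within a 1.25-fold change in either direction (a log2 difference of 0.322). Gfap, Aqp4, Gja1, Slc1a2, Slc1a3, Aldh1l1, Sox9 and Glul were among them. For the other 7, Agt, Aldh1a1, Fgfr3, Gjb6, Mfge8, Ntsr2 and Vim, the interval reached beyond it on at least 1 side.

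**Figure D3:**
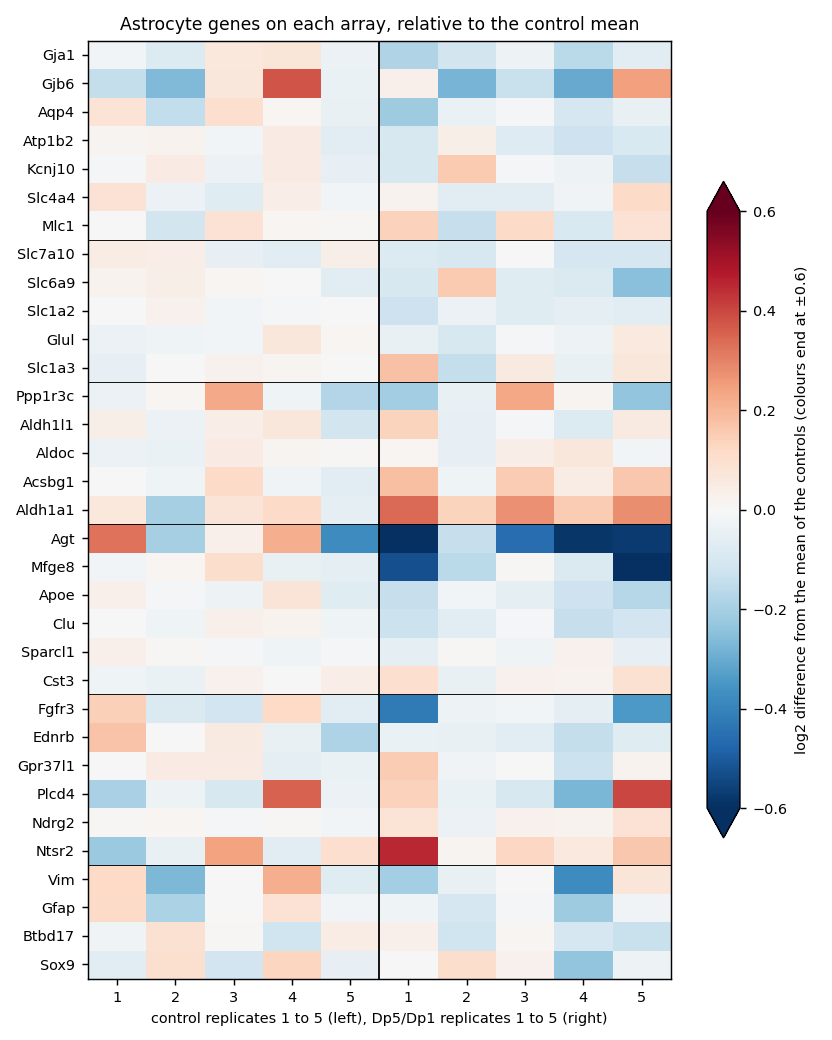
Level of the 33 members on each of the 10 arrays as the log2 difference from the mean of the controls. Rows are genes in the order of the role groups, columns are control replicates 1 to 5 and Dp5/Dp1 replicates 1 to 5, and the colour scale ends at ±0.6. The Agt row is blue across Dp5/Dp1, while the Mfge8 and Fgfr3 rows are dark only in replicates 1 and 5.

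The members did not move as 1 block from array to array. Dp5/Dp1 replicates 1 and 5, a pair chosen after the values were seen, were the 2 lowest of the 10 arrays for 7 members, Apoe, Fgfr3, Kcnj10, Mfge8, Ppp1r3c, Slc6a9 and Sparcl1 (21.2%, against 3.42% of all genes). The same 2 arrays were the 2 highest for 5 members, Acsbg1, Aldh1a1, Cst3, Ndrg2 and Slc1a3 (15.2%, against 4.12% of all genes). The 48 other astrocyte genes described below, which overlap with none of the 33, had 9 genes at the low end (18.8%) and 11 at the high end (22.9%) on these arrays. Dp5/Dp1 replicates 2 and 5, those with high habenula markers, were the 2 lowest or the 2 highest arrays for none of the 33, and for 1.05% and 1.65% of all genes. Dp5/Dp1 replicate 1 was the highest of the 10 arrays for 8 members (and for 14.3% of all genes) and the lowest for 6 (10.8% of all genes). Dp5/Dp1 replicate 4 was the highest for 1 (6.48% of all genes) and the lowest for 9, Gfap, Sox9 and Vim included (9.33% of all genes). Control replicate 4 was the highest for 7 (9.49% of all genes) and the lowest for none (10.5% of all genes). The mean over the 33 members spanned 10.87 to 10.97 in controls and 10.82 to 10.91 in Dp5/Dp1. The mean over all genes spanned 7.63 to 7.65 in each group.

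Leaving out 1 array at a time left between 3 and 11 members with an unadjusted p under 0.05, while the share of all genes below it ran from 3.93% to 7.74%. Without Dp5/Dp1 replicate 1 there were 3 members (Agt, Aldh1a1 and Clu), with 3.93% of all genes. Without Dp5/Dp1 replicate 5 there were 5 (Agt, Aldh1a1, Clu, Gja1 and Slc1a2), with 5.85%, and without Dp5/Dp1 replicate 2 there were 11, with 7.74%. Agt, Aldh1a1 and Clu stayed below 0.05 in each of the 10 fits. The difference of Agt ran from -0.64 to -0.44 over these fits and that of Aldh1a1 from 0.19 to 0.26.

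A second list held 50 other genes of astrocytes, of which 48 had a probe set of their own. They were split, 20 higher and 28 lower (58.3%), with a median difference of -0.012. Cbs, which encodes cystathionine beta-synthase of the transsulfuration pathway (chromosome 17, 31612623 to 31637233), was the only one called. Its levels were 9.09, 9.07, 9.06, 9.19 and 9.17 in controls and 8.56, 8.89, 8.81, 8.77 and 8.51 in Dp5/Dp1. The groups did not overlap, and Dp5/Dp1 replicates 1 and 5 were the lowest (difference -0.40 ± 0.07, limma adjusted p = 0.0412). When 1 array was left out the call was lost in 9 of 10 cases, with adjusted p from 0.0232 to 0.158, and without Dp5/Dp1 replicates 1 and 5 (-0.29, adjusted p = 0.0639). At an unadjusted p under 0.05 there were 5 higher genes (10.4%) and 5 lower genes, Cbs included (10.4%), against the 3.39% and 2.67% of all genes. The study had already reported Cbs as lower in this model, and this list too was chosen with earlier results known.

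A further list held 35 genes induced in reactive astrocytes, of which 31 had a probe set of their own. limma called none of them, where 0.206% of all genes were called. The mean was higher for 15 and lower for 16 (51.6%, against 48.5% of all genes), and the median difference was -0.0044. Psmb8, an immunoproteasome subunit, was the only one with an unadjusted p under 0.05 (0.085 ± 0.037, adjusted p = 0.818). That makes 3.23% higher and none lower, against 3.39% and 2.67% of all genes. FCROS passed none as higher and Tm4sf1 as lower (3.23%), where 2.84% and 2.21% of all genes passed. Next by p came B3gnt5, a glycosyltransferase (0.096 ± 0.046), Tm4sf1, a membrane protein (-0.16 ± 0.08), and Slc10a6, a transporter of steroid sulfates (-0.068 ± 0.033). Of the 31 genes, 13 were among the dimmest 40% of all genes, where RMA compresses differences.

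Markers of other cell types and of tissue next to the hippocampus were read on the same arrays. The mean of 7 neuronal genes stayed between 12.67 and 12.81 on all arrays, and that of 11 microglial genes between 8.71 and 8.80 in controls and 8.62 and 8.83 in Dp5/Dp1. limma called none of the 92 genes in the 11 lists of other cell types, of which 4 were higher and none lower at an unadjusted p under 0.05, where 3.39% and 2.67% of all genes were. FCROS passed 8 as higher and 3 as lower, where 2.84% and 2.21% of all genes passed. The mean of 12 choroid plexus genes was 8.94, 6.79, 6.95, 8.80 and 8.28 in controls and 6.90, 7.22, 8.24, 6.94 and 8.52 in Dp5/Dp1, and all 12 had a lower mean in Dp5/Dp1 (median -0.41) with groups that overlapped. The mean of 7 medial habenula genes was 6.24, 6.26, 6.72, 6.22 and 6.19 in controls and 6.31, 7.71, 6.49, 6.24 and 7.07 in Dp5/Dp1, where all 7 were higher (median 0.34). The mean of 8 thalamus genes was 8.81, 8.19, 8.43, 8.57 and 8.35 in controls and 8.25, 8.49, 8.24, 7.94 and 8.61 in Dp5/Dp1. Of these 8 genes, 6 were lower in Dp5/Dp1 and 2 higher (median -0.17). Of 8 endothelial genes, 3 (Cldn5, Kdr and Tek, named after their values were seen) were higher with an unadjusted p under 0.05, and over the list 4 were higher and 4 lower. The mean of the list ran from 8.71 to 8.98 in controls and 8.85 to 8.99 in Dp5/Dp1.

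Agt was set beside the choroid plexus mean on each array. Control replicates 1 and 4 had the highest choroid plexus means and the highest Agt, but control replicate 5, next in choroid plexus, had the lowest Agt of the controls. In Dp5/Dp1, replicates 5 and 3 had the highest choroid plexus means with Agt at 9.18 and 9.30, and replicate 2, with a choroid plexus mean of 7.22, had the highest Agt. Control replicates 1, 4 and 3, in this order, had the highest thalamus means (8.81, 8.57 and 8.43) and the highest Agt of the controls. In Dp5/Dp1, replicate 5 had the highest thalamus mean (8.61), and replicate 2 came next (8.49). The thalamus mean was not used as a covariate. With the choroid plexus mean as a covariate the difference of Agt was -0.49 and that of Aldh1a1 0.26. With the habenula mean as well they were -0.64 and 0.27, and without Dp5/Dp1 replicates 2 and 5 they were -0.65 and 0.26. The part of other tissues in the remaining differences was not tested.

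**Figure D4:**
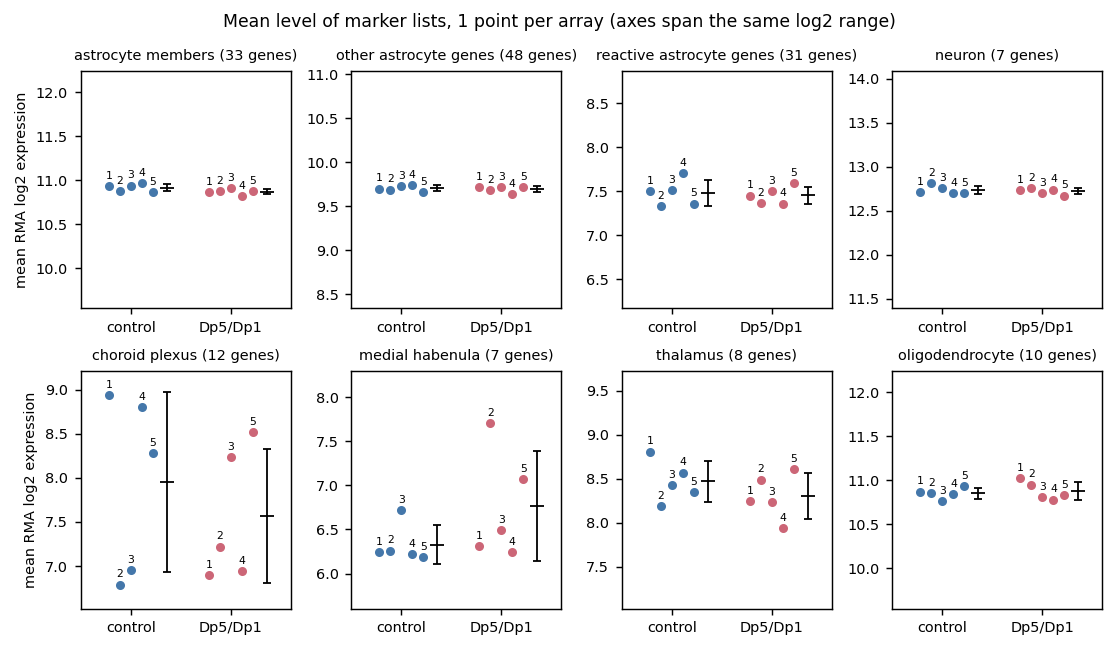
Mean level of 8 marker lists on each array. The y axis is the mean RMA log2 expression over the genes of a list, all panels span the same log2 range, points are arrays numbered by replicate (control in blue, Dp5/Dp1 in red), and the bars are the mean ± SD of 5 arrays. The 33 astrocyte genes and the neuronal genes stay within a narrow band, while choroid plexus spans 6.79 to 8.94 and medial habenula 6.19 to 7.71.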

How the data were processed

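Hippocampal RNA of 10 mice was measured on Affymetrix Mouse Gene 1.0 ST arrays. The authors normalized the arrays by RMA and deposited log2 expression values, and the submitters' notes name RMA, limma and mm10, with no version. The quantile step of RMA gives all arrays nearly the same distribution, so a level is relative to the other genes of its array. The platform annotation names 1 gene for 21789 of the 35556 probe sets, several for 1621 and none for 12146. The probe set with the highest mean was read per gene (19938 genes). Array correlations across genes were 0.996 to 0.999 and no 2 arrays were identical. The labels call the arrays biological replicates, and the number of arrays limits the precision.

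Groups came from the condition label. Groups were compared with limma 3.58.1 (R 4.3.3), two-sided, by lmFit and eBayes with Benjamini-Hochberg adjustment over all genes and a threshold of 0.05. FCROS was rewritten from its description (25 array pairs, trim 0.25, f-value 0.025 in either tail). Differences are shown for all members, and values on every array for those with an unadjusted p under 0.05 and for 8 astrocyte markers. In the other astrocyte lists the genes named are those called, otherwise the 4 with the lowest p. The members and lists were chosen with earlier results of these data known. Controls are marked as re-analysed and are shared with the lines carrying either duplication alone, not analysed here. Listed genes without a probe set naming 1 symbol were not analysed here. Promoters came from RefSeq (GRCm38.p6), with no entry for Sox9, Atp1b2, Aqp4, Clu and Sparcl1. Scripts were tested on simulated data. Alternatives comprised other filters, scalings, probe set rules, variance models, covariates and left-out arrays.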

Additional observations from a re-analysis of the deposited data

Results flagged for a closer look

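Among 76 combinations of a gene and a group, 1 array stood far from the others of its group by Dixon's ratio, where chance would give 3.8. It was Slc7a10 in Dp5/Dp1 replicate 3, at 9.590, above the other 4 Dp5/Dp1 arrays at 9.486 to 9.505 (ratio 0.812). That array lay within the control range of Slc7a10.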

How the results depend on the processing

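limma called none of the 33 members in any of the alternatives run, nor at an adjusted p under 0.1, whereas FCROS passed 5 of them. Of these, 2 were higher (6.06%, against 2.84% of all genes) and 3 lower (9.09%, against 2.21% of all genes). Over 726 combinations of a member and a setting, 685 kept the direction and 41 reversed it, none past the threshold, and 21 members never reversed. Without Dp5/Dp1 replicates 1 and 5, Aldh1l1 (-0.047), Gpr37l1 (-0.049), Kcnj10 (0.038), Mlc1 (-0.040), Plcd4 (-0.14), Ppp1r3c (0.069), Slc1a3 (-0.045) and Sparcl1 (0.0028) changed sign, and 2 members had an unadjusted p under 0.05. Without Dp5/Dp1 replicates 2 and 5, Plcd4 (-0.079) and Ppp1r3c (0.014) did so, as they did with array weights (-0.016 and 0.0066). Gpr37l1 changed sign when centred on genes outside the intervals (-0.0007), with choroid plexus markers (-0.0040) and with habenula markers too (-0.0065), and Slc4a4 with these covariates (0.016 and 0.026). When 1 array was left out, the ranges were -0.022 to 0.031 for Aldh1l1, -0.0025 to 0.027 for Aldoc, -0.17 to 0.0067 for Gjb6, -0.031 to 0.039 for Gpr37l1, -0.070 to 0.0037 for Kcnj10, -0.0076 to 0.062 for Mlc1, -0.069 to 0.11 for Plcd4, -0.12 to 0.0091 for Ppp1r3c, -0.017 to 0.063 for Slc1a3, -0.032 to 0.019 for Slc4a4 and -0.061 to 0.025 for Sox9. Among members that kept their sign, Ednrb ran from -0.12 to -0.029, Slc6a9 from -0.13 to -0.025, Aqp4 from -0.12 to -0.048 and Ntsr2 from 0.090 to 0.22. With 1 array left out, the count of members with an unadjusted p under 0.05 ran from 3 to 11. That count fell to 2 when Dp5/Dp1 replicates 1 and 5 were both left out. Over the fits without 1 array, the median difference of all members ran from -0.069 to -0.025. The other astrocyte genes called (Cbs) ran from 0 to 1. No other astrocyte gene was called with the choroid plexus covariate, with both covariates, without Dp5/Dp1 replicates 1 and 5, or without replicates 2 and 5 (0 each), where Cbs differed by -0.40, -0.42, -0.29 and -0.40. Over all genes limma called 41, against 21 without Dp5/Dp1 replicates 2 and 5, 24 without replicates 1 and 5, 27 with both covariates, and FCROS 1008. The deviations of same-numbered samples from their group means had correlations from -0.35 to 0.29. Only control replicate 2 matched the Dp5/Dp1 array of its own number best. The main fit was unpaired, and a pairing by litter or batch was not tested. The replicate block in limma called 26 genes, 0 other astrocyte genes and 0 members, with an adjusted p of 0.198 for Cbs. In that fit 8 members had an unadjusted p under 0.05, with 6.23% of all genes below it. The deposited values used here hold no separate measure of background signal. The cause of these shifts was not tested.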
